A study of Mus musculus with 4 samples.

Results

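The SR, hnRNP and snRNP protein genes of the splicing machinery were followed in mouse embryonic stem cells on day 3 of an induction towards mesoderm, in cells without Stk40 and in wild-type cells. The genes were taken by name. All protein-coding rows whose symbols begin with Srsf and a digit, with Hnrnp, with Sf3a or Sf3b and a digit, or with Snrp were kept, and Snrpn was left out. This gave 51 genes among 51826 rows of the expression table, of which 21948 rows were protein-coding. A further 4 rows that carry such symbols were pseudogenes and were not kept. The genes fall into 5 families, with 11 SR genes, 20 hnRNP genes, 9 genes of the SF3A and SF3B complexes, 7 Sm ring genes, and 4 genes of proteins found only in the U1 or the U2 particle.

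The samples were 2 libraries of Stk40-/- cells and 2 libraries of wild-type (WT) cells, all of C57BL/6 background. Both genotypes passed through the same protocol, in which stem cells freed of feeder fibroblasts were plated on gelatin. They grew for 2 days with BMP4 (10 ng/ml) and for the last day in a medium with 15% serum replacement, 1 uM CHIR99021 (an inhibitor of the kinase GSK3, which activates Wnt signalling) and 0.5% DMSO. The labels do not say whether the libraries of a genotype came from separate clones or separate cultures, so the spread between replicates may be technical, and the Stk40-/- cells may stand for 1 line. RNA was selected for its poly(A) tail. Levels are given in TPM (transcripts scaled to a fixed total per library), a unit that corrects for transcript length. The depth behind each value is unknown.

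Splicing removes introns in a large complex of RNA and protein. The small nuclear ribonucleoproteins (snRNPs) carry the RNAs that recognise splice sites and the branch point, and most of them are built on a ring of Sm proteins. U1 recognises the start of the intron. U2 recognises the branch point with the help of the SF3A and SF3B complexes. SR proteins bind exons through RNA recognition motifs and recruit snRNPs through domains rich in arginine and serine. The hnRNP proteins coat the transcript and often counteract SR proteins at the same exons. Many SR and hnRNP genes keep their own protein level steady by splicing in exons that expose the mRNA to nonsense-mediated decay.

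The library labels were checked on Stk40, which had 3.54 and 3.17 TPM in the Stk40-/- libraries and 28.9 and 39.9 TPM in the WT libraries. One WT library stood apart in composition. Protein-coding genes held 93.7% and 93.5% of TPM in the Stk40-/- libraries, against 93.2% in WT replicate 1 and 89.9% in WT replicate 2. The difference was made up in part by small structural RNAs, with Rn7s1 and Rn7s2 at 1.07% each and Rn7sk at 0.586% of WT replicate 2. Since TPM fixes the sum of a library, such RNAs lower every other gene in it by the same factor. The markers of nascent mesoderm summed to 414 and 265 TPM in the Stk40-/- libraries and 1250.0 and 634 TPM in the WT libraries, with 5 of 8 genes above the level filter and Mesp1 at 0 in 3 of the 4 libraries. Most of each sum was T, with 355 and 217 TPM in the Stk40-/- libraries and 1025 and 535 TPM in the WT libraries. Of the 5 genes, 4 were lower without overlap (80%, against 16.6% of all genes tested) and Eomes overlapped. Tbx6, Lhx1 and Mesp1, below the filter, overlapped too. Msgn1 had 90.6 and 7.22 TPM in the WT libraries. Later mesoderm markers summed to 4.84 TPM or less in every library. Feeder fibroblast markers summed to 22.3 and 18.8 TPM in the Stk40-/- libraries and 23.2 and 33.5 TPM in the WT libraries. Of the 5 feeder genes above the level filter, 4 were lower without overlap (80%, against 16.6% of all genes tested) and Thy1 overlapped. Pluripotency markers summed to 624 and 677 TPM in the Stk40-/- libraries and 514 and 647 TPM in the WT libraries. Among them Nanog was higher and Zfp42 lower without overlap, while Pou5f1 and Sox2 overlapped. The cells thus differed in their marker levels, and the part of this difference in the splicing genes was not tested. In bulk RNA, fewer cells of a type and less RNA per cell cannot be told apart.

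The proximal promoters of 8 genes are shown, because they belong to the genes whose genotypes stood clearest apart and let the 2 directions be read side by side. They were picked after the values were seen, as the 4 genes with the smallest unadjusted p in each direction among those with a promoter entry, no overlap of groups and a difference larger than both replicate differences. Each stretch runs from 150 bases before to 30 bases after the RefSeq start on GRCm38.p6 and is written on the gene's own strand, with its length of 180 bases. Capitals mark any match to 6 motifs searched on both strands. These were the ETS core (CGGAAG or CTTCCG), the CCAAT box (CCAAT or ATTGG), the TATA box (TATAAA or TTTATA), the GC box (GGGCGG or CCGCCC), the AP-1 site (TGACTCA or TGAGTCA) and the cyclic AMP response element (TGACGTCA). Capitals run together where matches touch or overlap. The 4 genes with higher levels in Stk40-/- cells were these.
Srsf11, chr3:158036577-158036756, minus strand: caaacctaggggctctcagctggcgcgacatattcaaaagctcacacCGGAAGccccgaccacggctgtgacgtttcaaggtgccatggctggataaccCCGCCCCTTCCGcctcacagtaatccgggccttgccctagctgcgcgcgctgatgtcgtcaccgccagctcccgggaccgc
Sf3b1, chr1:55027449-55027628, minus strand: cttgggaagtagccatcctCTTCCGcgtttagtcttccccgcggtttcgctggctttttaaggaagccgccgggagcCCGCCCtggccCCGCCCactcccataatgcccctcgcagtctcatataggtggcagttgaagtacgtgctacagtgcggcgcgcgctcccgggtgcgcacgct
Hnrnpu, chr1:178337786-178337965, minus strand: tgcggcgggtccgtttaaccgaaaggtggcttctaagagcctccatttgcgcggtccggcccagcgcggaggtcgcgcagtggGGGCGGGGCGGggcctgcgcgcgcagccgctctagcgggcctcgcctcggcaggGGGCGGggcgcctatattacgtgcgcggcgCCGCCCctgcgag
Hnrnph3, chr10:63023820-63023999, minus strand: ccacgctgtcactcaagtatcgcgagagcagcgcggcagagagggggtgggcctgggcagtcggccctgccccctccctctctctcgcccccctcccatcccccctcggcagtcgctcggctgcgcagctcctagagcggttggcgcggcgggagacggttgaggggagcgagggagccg
The 4 genes with lower levels in Stk40-/- cells were these.
Sf3b6, chr12:4817458-4817637, plus strand: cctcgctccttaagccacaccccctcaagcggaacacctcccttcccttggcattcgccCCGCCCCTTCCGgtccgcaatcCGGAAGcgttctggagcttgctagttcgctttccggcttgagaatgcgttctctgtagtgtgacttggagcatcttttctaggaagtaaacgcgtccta
Snrpg, chr6:86371390-86371569, plus strand: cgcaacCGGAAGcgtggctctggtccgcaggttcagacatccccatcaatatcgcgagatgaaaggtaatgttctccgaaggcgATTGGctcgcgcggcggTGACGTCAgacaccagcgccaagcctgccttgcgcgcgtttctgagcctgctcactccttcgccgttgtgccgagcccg
Snrpe, chr1:133610251-133610430, minus strand: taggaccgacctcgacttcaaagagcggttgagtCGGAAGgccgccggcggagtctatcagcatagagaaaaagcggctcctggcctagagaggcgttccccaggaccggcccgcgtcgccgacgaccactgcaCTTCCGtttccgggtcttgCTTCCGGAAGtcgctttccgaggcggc
Snrpd2, chr7:19149688-19149867, plus strand: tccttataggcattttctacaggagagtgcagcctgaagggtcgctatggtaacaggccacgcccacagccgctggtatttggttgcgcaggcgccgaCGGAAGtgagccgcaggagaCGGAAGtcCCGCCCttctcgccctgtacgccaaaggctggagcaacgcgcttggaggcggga
The ETS core stands in the stretches of Srsf11 and Sf3b1 on the higher side and in all 4 on the lower side. It thus occurs on both sides among these 8 picked genes. Its share by direction over all matched promoters was not counted. The stretch of Hnrnph3 holds none of the 6 motifs, and only that of Snrpg holds a cyclic AMP response element.

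Over the full window of 250 bases before to 50 bases after the start, 45 of the 51 genes matched a RefSeq entry. The ETS core was found in 24 of these 45 promoters (53.3%), against 31.8% of 9946 promoters of tested protein-coding genes and 17.2% of all 27025 promoters in the table. It was in 7 of 7 SF3A and SF3B promoters and 4 of 4 promoters of the U1 and U2 specific genes, and in 5 of 18 hnRNP promoters. The CCAAT box showed the other order, with 12 of 18 hnRNP promoters, 2 of 7 SF3A and SF3B promoters and 0 of 4 promoters of U1 and U2 specific genes. The 2 motifs were thus spread unevenly over the families, with no test of the difference. CCAAT was in 46.7% of the matched promoters of the splicing genes, against 39.5% of tested protein-coding promoters, and the GC box was in 71.1% against 66.3%. The TATA box was in 13.3% against 6.62%. The AP-1 site occurred in 2 promoters, those of Hnrnpa1 and Snrpc, which is 4.44% against 3.41%. A match is a run of letters and not a shown binding site.

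The first comparison asked whether any of these genes differed between Stk40-/- and WT cells. All 51 genes passed the filter, a mean over the libraries of 1 TPM or more, and none had replicates more than 2-fold apart. In limma's moderated test on log2(TPM + 1), with Benjamini-Hochberg adjustment over the 15739 genes tested and a threshold of 0.05, 0 of the 51 genes were called, and 0.0% of all genes tested were called. The smallest adjusted p was 0.384 among the splicing genes and 0.114 among all genes. At an unadjusted p under 0.05 there were 16 of the 51 genes (31.4%), against 11.0% of all genes tested and 17.3% of protein-coding genes of at least 50 TPM on average. This count is sensitive to the model, and was 0 when limma was run without its intensity trend. All values below are therefore descriptions of 4 libraries, and no single gene is called changed.

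The groups did not overlap for 68.6% of the 51 genes, against 44.0% of all genes tested and 54.0% of protein-coding genes of at least 50 TPM. In 27 genes both Stk40-/- libraries were above both WT libraries (52.9%), against 27.5% of all genes tested and 34.4% of protein-coding genes of at least 50 TPM. In 8 genes both were below (15.7%), against 16.6% of all genes tested and 19.7% of those of at least 50 TPM. The direction leans on the scaling. After division by median-of-ratios factors 19 genes were higher and 11 lower, after rescaling to protein-coding genes 23 were higher and 10 lower, and after centring the genotype difference within classes of transcript length 18 were higher and 13 lower. The median log2 fold change, Stk40-/- over WT, was 0.11 over the 51 genes, against 0.07 over all genes tested and 0.05 over protein-coding genes of at least 50 TPM. It was 0.043 with median-of-ratios factors, 0.078 after rescaling to protein-coding genes and 0.061 after centring. Over all genes tested it was 0.003, 0.035 and 0.006 in the same order. The shares free of overlap over all genes were not taken under these settings. The differences of single genes between genotypes were small, with extremes of 0.40 for Hnrnph3 and -0.28 for Snrpg. In 29 of the 51 genes the difference between genotypes was larger than the difference between replicates in both groups. This count was not made over all genes tested, so it cannot set the 51 genes apart.

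Together the 51 genes made up 1.90% and 1.89% of TPM in the Stk40-/- libraries and 1.75% and 1.7% in the WT libraries. The hnRNP family held most of this, with a mean summed level of 11939.1 ± 195 TPM in Stk40-/- cells and 10548.8 ± 481 TPM in WT cells (SD, n = 2 each). Levels within a family spanned 80.0-fold among SR genes, 27.3-fold among hnRNP genes and 8.08-fold among Sm genes. The range was 5.02-fold among SF3A and SF3B genes and 1.7-fold among U1 and U2 specific genes. These spans between genes were far wider than any difference between genotypes.

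**Figure D1:**
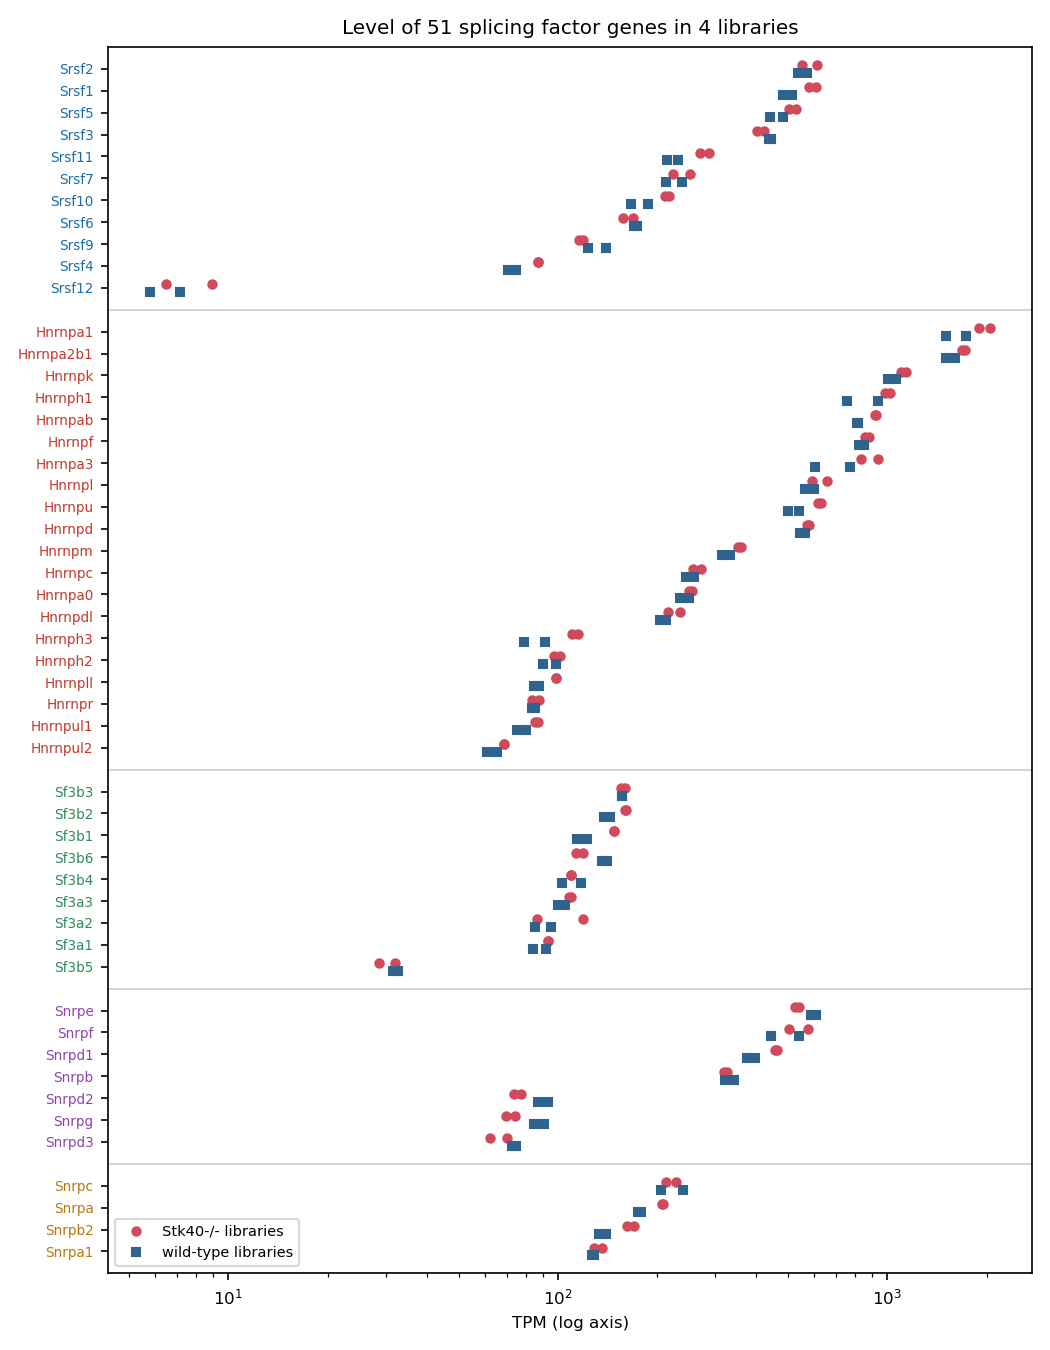
Level of each of the 51 genes in TPM on a log axis, by family from top to bottom (SR, hnRNP, SF3A and SF3B, Sm ring, U1 and U2 specific), with red circles for the 2 Stk40-/- libraries above blue squares for the 2 WT libraries. The levels range from Srsf12, under 9 TPM in every library, to Hnrnpa1 at 1507 to 2048 TPM, and the separation of red from blue is small beside the differences between genes.

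Among the SR genes, 5 of 11 were higher in Stk40-/- cells without overlap of groups (45.5%), 3 were lower (27.3%) and 3 overlapped. The shares over protein-coding genes of at least 50 TPM were 34.4% higher and 19.7% lower. The family's median log2 fold change was 0.16, and its summed level was 3159.3 and 3255.5 TPM in the Stk40-/- libraries and 2957.3 and 2966.4 TPM in the WT libraries. The direction thus differed between members of the family. The higher genes were Srsf1, Srsf4, Srsf5, Srsf10 and Srsf11, and the lower genes were Srsf3, Srsf6 and Srsf9.

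Srsf11 encodes an SR protein of the spliceosome also known as p54, and the gene lies at chr3:158010473-158036639 (GRCm38). It had 287 and 270.5 TPM in the Stk40-/- libraries and 231 and 214 TPM in the WT libraries, with a log2 fold change of 0.32 ± 0.08 (SE) and an adjusted p of 0.384 in limma. Its genotypes were separate, and the difference of 0.26 to 0.38 under all alternatives tried kept its sign. Srsf1, the founding SR protein that promotes exon inclusion and the use of proximal splice sites, had 607 and 579 TPM in the Stk40-/- libraries and 515 and 484 TPM in the WT libraries. Its log2 fold change was 0.25 ± 0.06 (limma, adjusted p = 0.40). Both genes thus had their 2 Stk40-/- values above their 2 WT values.

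Srsf10, which encodes a factor that acts as a general splicing repressor when dephosphorylated, had 217 and 212 TPM in the Stk40-/- libraries and 188 and 166 TPM in the WT libraries (log2 fold change 0.27 ± 0.09; limma, adjusted p = 0.435). Srsf12, its close relative, was the scarcest of all 51 genes, with 8.95 and 6.48 TPM in the Stk40-/- libraries and 7.15 and 5.79 TPM in the WT libraries. The genotypes overlapped for Srsf12. Srsf2, also called SC35 and a marker of nuclear speckles, had the highest mean level of the family, with 549.7 and 612 TPM in the Stk40-/- libraries and 537 and 570.3 TPM in the WT libraries. It overlapped too, as did Srsf7 with 224 and 251 TPM in the Stk40-/- libraries and 212 and 238 TPM in the WT libraries.

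Srsf4, Srsf5 and Srsf6 are related proteins with tandem RNA recognition motifs, and they did not share a direction. Srsf4 had 87.1 and 86.8 TPM in the Stk40-/- libraries and 74.7 and 70.5 TPM in the WT libraries, a log2 fold change of 0.26 ± 0.08 (limma, adjusted p = 0.435). Srsf5 had 502 and 527 TPM in the Stk40-/- libraries and 439 and 483 TPM in the WT libraries, a log2 fold change of 0.16 ± 0.07 (limma, adjusted p = 0.516). Srsf6 lay slightly lower, with 158 and 169 TPM in the Stk40-/- libraries and 170.4 and 174 TPM in the WT libraries (-0.08 ± 0.07; limma, adjusted p = 0.699). Srsf4 and Srsf5 were separate with Stk40-/- above WT, and for Srsf4 the gap between the groups was wider than the spread within either pair. For Srsf5 and Srsf6 the gap was smaller than the spread within either pair.

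Srsf9, the close relative of Srsf1, ran the other way from it. It had 116 and 119 TPM in the Stk40-/- libraries and 140.3 and 123 TPM in the WT libraries, and its log2 fold change was -0.16 ± 0.10 (limma, adjusted p = 0.594). Both Stk40-/- values were below both WT values, but the WT pair differed more from each other than the nearest values of the groups did. The ratio of Srsf1 to Srsf9 was 5.22 and 4.86 in the Stk40-/- libraries and 3.67 and 3.92 in the WT libraries. Srsf3, a small SR protein that also takes part in mRNA export, had 402 and 422 TPM in the Stk40-/- libraries and 442 and 437 TPM in the WT libraries (-0.09 ± 0.06; limma, adjusted p = 0.613). The ratio of Srsf3 to its relative Srsf7 was 1.79 and 1.68 in the Stk40-/- libraries and 2.08 and 1.84 in the WT libraries, again separate. These ratios, and those of other pairs given below, were chosen after the values were seen and have no test.

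All 20 hnRNP genes had a positive log2 fold change, against 58.6% of all genes tested and 61.0% of protein-coding genes of at least 50 TPM. In 15 of them the groups did not overlap, all with Stk40-/- above WT (75.0%, against 27.5% of all genes tested and 34.4% of those of at least 50 TPM), and 5 overlapped. The family median was 0.13, and the log2 fold changes ran from 0.02 to 0.40. The uniform sign did not hold under every scaling. It held for 16 of 20 genes with median-of-ratios factors, for 17 of 20 after centring by transcript length, and for 19 of 20 after rescaling to protein-coding genes. Hnrnpr was negative under all 3 of these, at -0.05, -0.14 and -0.01, and at -0.02 without Stk40-/- replicate 1. The separation moved too. With median-of-ratios factors 10 genes were higher without overlap and 1 lower. After centring by transcript length 8 were higher and 2 lower, and after rescaling to protein-coding genes 13 and 0. The shares over all genes were not taken under these settings.

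**Figure D2:**
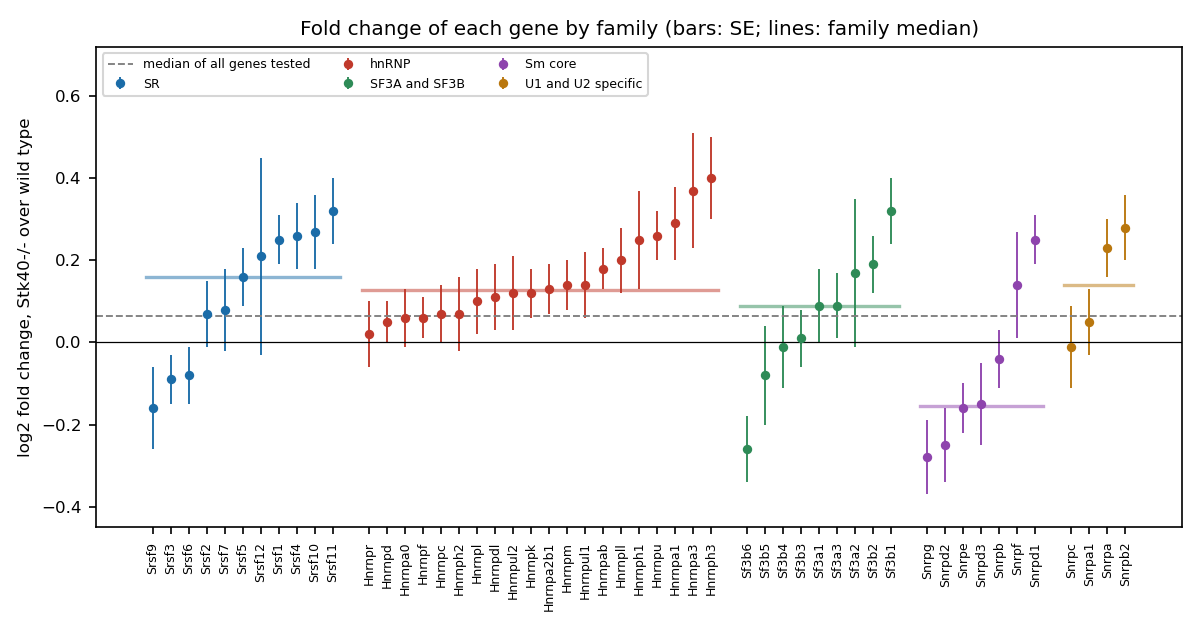
Log2 fold change, Stk40-/- over WT, of each of the 51 genes from the limma fit, ordered within its family, with error bars of 1 SE, a thick line at each family's median and a dashed line at the median of all genes tested. The hnRNP genes all lie above 0 while 5 of the 7 Sm ring genes lie below it, with family medians of 0.13 and -0.15.

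Hnrnpa1 and Hnrnpa2b1, of the A and B type hnRNPs, had the highest mean levels of the family. Hnrnpa1, which encodes a repressor of exon inclusion that binds exonic and intronic silencers, ranked 72 by mean level among tested protein-coding genes. It had 2048 and 1895 TPM in the Stk40-/- libraries and 1729 and 1507 TPM in the WT libraries, a log2 fold change of 0.29 ± 0.09 (limma, adjusted p = 0.417). Hnrnpa2b1, its closest partner, had 1725 and 1684 TPM in the Stk40-/- libraries and 1606 and 1503 TPM in the WT libraries (0.13 ± 0.06; limma, adjusted p = 0.484). The ratio of Hnrnpa1 to Hnrnpa2b1 was 1.19 and 1.13 in the Stk40-/- libraries, against 1.08 in WT replicate 1 and 1.00 in WT replicate 2, where the pair stood at equal levels. Hnrnpa3 had 934 and 829 TPM in the Stk40-/- libraries and 771 and 604 TPM in the WT libraries, and its log2 fold change of 0.37 ± 0.14 became 0.19 without WT replicate 2 and 0.54 without WT replicate 1. Both Stk40-/- values of Hnrnpa3 were above both WT values, but the 2 WT values lay far apart. Hnrnpa0, which has a single exon, averaged 253 ± 4.58 TPM in Stk40-/- cells and 242 ± 11.2 TPM in WT cells (SD, n = 2 each), with overlap.

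Hnrnph3 had the largest log2 fold change of the 51 genes. It encodes the shortest relative of the F and H proteins, which bind runs of guanines, and lies at chr10:63014664-63024217. It had 115 and 111 TPM in the Stk40-/- libraries and 79.1 and 91.2 TPM in the WT libraries, a log2 fold change of 0.40 ± 0.10 (limma, adjusted p = 0.40). The groups were separate by more than either pair of replicates. Its relatives had smaller log2 fold changes. Hnrnph1 had 982 and 1018 TPM in the Stk40-/- libraries and 934 and 753 TPM in the WT libraries, where WT replicate 2 alone was low. Hnrnpf had 855 and 881 TPM in the Stk40-/- libraries and 822 and 847 TPM in the WT libraries, and Hnrnph2 had 102 and 97.2 TPM in the Stk40-/- libraries and 99.0 and 90.3 TPM in the WT libraries. The ratio of Hnrnph3 to Hnrnpf was 0.134 and 0.126 in the Stk40-/- libraries and 0.0962 and 0.108 in the WT libraries, without overlap. Since Hnrnph3 was picked for its log2 fold change, the ratio largely repeats that value.

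Hnrnpu encodes a nuclear scaffold protein that binds both RNA and chromatin, and lies at chr1:178321108-178337797. It had 616 and 631 TPM in the Stk40-/- libraries and 539 and 501 TPM in the WT libraries, a log2 fold change of 0.26 ± 0.06 (limma, adjusted p = 0.385). Its paralogs Hnrnpul1 and Hnrnpul2 were also higher without overlap, by 0.14 and 0.12 on the log2 scale, at levels between 60.9 and 86.8 TPM in all libraries. Hnrnpab, which binds single-stranded nucleic acids and resembles hnRNP D, had replicates that lay close together. It had 926 and 919 TPM in the Stk40-/- libraries and 812 and 811 TPM in the WT libraries, a log2 fold change of 0.18 ± 0.05 (limma, adjusted p = 0.40). Hnrnpd, which encodes the AU-rich element binding protein AUF1, was nearly level with 577 and 571 TPM in the Stk40-/- libraries and 543 and 562 TPM in the WT libraries. The D type genes were thus all on the same side, with the clearest separation for Hnrnpab.

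Hnrnpk, which encodes a protein that binds runs of cytosines, had 1103 and 1141 TPM in the Stk40-/- libraries and 1059 and 1002 TPM in the WT libraries (log2 fold change 0.12 ± 0.06; limma, adjusted p = 0.508). Hnrnpl, whose protein binds CA repeats, had 654 and 592 TPM in the Stk40-/- libraries and 561 and 597 TPM in the WT libraries. Its paralog Hnrnpll, known as a regulator of Ptprc splicing in lymphocytes, had 98.4 and 99.0 TPM in the Stk40-/- libraries and 87.7 and 84.4 TPM in the WT libraries. Only the paralog was free of overlap between groups. Of the remaining genes, Hnrnpm and Hnrnpdl were higher without overlap, by 0.14 and 0.11, and Hnrnpc and Hnrnpr overlapped, at 0.07 and 0.02. Hnrnpc, a core protein that binds runs of uridines, had 257 and 272 TPM in the Stk40-/- libraries and 246 and 259 TPM in the WT libraries.

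The SF3A and SF3B genes had no common direction, with 4 higher without overlap, 1 lower and 4 overlapping, and a median log2 fold change of 0.09. Their share free of overlap, 55.6%, was near the 54.0% of protein-coding genes of at least 50 TPM. Sf3b1 encodes the scaffold of SF3B that clamps the branch point helix, and lies at chr1:54985169-55027481. It had 148 and 149 TPM in the Stk40-/- libraries and 122 and 114 TPM in the WT libraries, a log2 fold change of 0.32 ± 0.08 (limma, adjusted p = 0.385). Sf3b6 encodes the small p14 subunit that sits near the branch point adenosine, and lies at chr12:4817544-4827659. It had 119 and 113 TPM in the Stk40-/- libraries and 136 and 141 TPM in the WT libraries, a log2 fold change of -0.26 ± 0.08 (limma, adjusted p = 0.412). Both subunits had separate groups, in opposite directions, and neither changed sign under any alternative tried. The ratio of Sf3b1 to Sf3b6 was 1.24 and 1.31 in the Stk40-/- libraries and 0.90 and 0.811 in the WT libraries, so the order of the 2 transcripts was reversed between the genotypes. This pair, too, was chosen after its values were seen.

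The other subunits stayed between these extremes. Sf3b2 had 160.1 and 161 TPM in the Stk40-/- libraries and 138 and 144 TPM in the WT libraries (0.19 ± 0.07; limma, adjusted p = 0.461). Sf3b3, the highest of the family by mean level, had 156 and 159.8 TPM in the Stk40-/- libraries and 156 and 157 TPM in the WT libraries, a log2 fold change of 0.01 ± 0.07. Sf3b2 was separate between genotypes while Sf3b3 lay between 156 and 159.8 TPM in all 4 libraries. Sf3b4 had 109.6 and 109.9 TPM in the Stk40-/- libraries, inside the 103 and 118 TPM of the WT libraries. Sf3b5, a single-exon gene, had the lowest level, with 28.7 and 32.1 TPM in the Stk40-/- libraries and 32.6 and 31.7 TPM in the WT libraries.

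The 3 SF3A genes, whose products join U2 as a trimer, had log2 fold changes of 0.09 to 0.17. Sf3a3 averaged 109 ± 1.12 TPM in Stk40-/- cells and 102 ± 3.5 TPM in WT cells (SD, n = 2 each; 0.09 ± 0.08; limma, adjusted p = 0.661). Sf3a1 had 93.7 and 93.1 TPM in the Stk40-/- libraries and 84.0 and 91.8 TPM in the WT libraries. Both were free of overlap by a small margin. Sf3a2 was unsettled by its replicates, with 86.3 and 119.6 TPM in the Stk40-/- libraries and 85.3 and 95.1 TPM in the WT libraries.

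Of the 7 Sm ring genes, 4 were lower without overlap, 1 was higher and 2 overlapped, and the median log2 fold change was -0.15. The 57.1% lower stand beside 16.6% of all genes tested and 28.7% of tested protein-coding genes whose longest transcript is under 1500 bases. That length class holds 5 of the 7 Sm ring genes. Their summed level was nearly equal, at 2047.6 and 2089.7 TPM in the Stk40-/- libraries and 2013.9 and 2099.6 TPM in the WT libraries. The lower genes were Snrpd2, Snrpd3, Snrpe and Snrpg. Snrpe lies at chr1:133603871-133610291 and had 539.7 and 525 TPM in the Stk40-/- libraries and 585 and 608 TPM in the WT libraries, a log2 fold change of -0.16 ± 0.06 (limma, adjusted p = 0.445). Snrpg lies at chr6:86371304-86379328 and had 74.4 and 69.5 TPM in the Stk40-/- libraries and 84.5 and 90.9 TPM in the WT libraries (-0.28 ± 0.09; limma, adjusted p = 0.437). For both, the gap between genotypes was wider than the gap within them.

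Snrpd2 lies at chr7:19149722-19153542 and encodes the partner of SmD1 in the ring. It had 77.4 and 73.8 TPM in the Stk40-/- libraries and 86.8 and 93.3 TPM in the WT libraries, a log2 fold change of -0.25 ± 0.09 (limma, adjusted p = 0.447). Snrpd1, which encodes SmD1, lay on the other side, with 463 and 456 TPM in the Stk40-/- libraries and 397 and 375 TPM in the WT libraries (0.25 ± 0.06; limma, adjusted p = 0.386). The ratio of Snrpd1 to Snrpd2 was 5.99 and 6.18 in the Stk40-/- libraries and 4.57 and 4.02 in the WT libraries, although the proteins enter the ring together. This pair was chosen after its values were seen, and the ratio restates their opposite directions. Snrpd3, which encodes the partner of SmB, had 62.3 and 70.0 TPM in the Stk40-/- libraries and 74.9 and 72.4 TPM in the WT libraries (-0.15 ± 0.10; limma, adjusted p = 0.622). Snrpb, which encodes SmB, overlapped with 326 and 319 TPM in the Stk40-/- libraries and 341 and 321 TPM in the WT libraries. Snrpf overlapped with 504 and 576 TPM in the Stk40-/- libraries and 444 and 539 TPM in the WT libraries, and in both genotypes replicate 2 was the higher one.

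The transcripts of the ring also differed in level from each other. Snrpe, Snrpf, Snrpd1 and Snrpb lay between 319 and 608 TPM in all libraries, while Snrpd2, Snrpd3 and Snrpg lay between 62.3 and 93.3 TPM, although the ring takes up 1 copy of each protein. The levels of genes with near-identical copies are uncertain, since Salmon divides reads among copies, and how far this touches these genes was not measured.

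**Figure D3:**
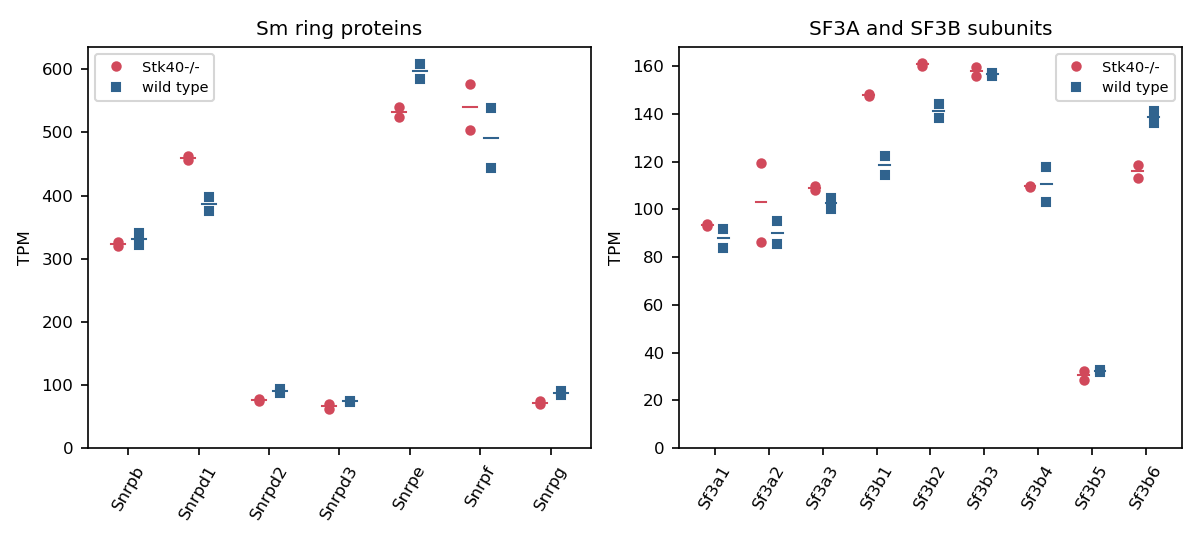
Level in TPM of the 7 Sm ring genes (left) and the 9 SF3A and SF3B genes (right), with red circles for the 2 Stk40-/- libraries, blue squares for the 2 WT libraries and short lines at the means. Snrpd1 lies higher and Snrpd2, Snrpd3, Snrpe and Snrpg lie lower in Stk40-/- cells, and Sf3b1 and Sf3b6 stand in opposite order in the 2 genotypes.

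Of the 4 genes for proteins specific to U1 or U2, 2 were higher in Stk40-/- cells without overlap and 2 overlapped. The 50% higher stand beside 27.5% of all genes tested and 34.4% of protein-coding genes of at least 50 TPM. Snrpa, which encodes the A protein of U1 that binds a loop of its RNA, had 208 and 208 TPM in the Stk40-/- libraries and 179 and 175 TPM in the WT libraries (log2 fold change 0.23 ± 0.07; limma, adjusted p = 0.401). Snrpb2, which encodes the related U2 protein, had 162 and 169.8 TPM in the Stk40-/- libraries and 133 and 140.2 TPM in the WT libraries (0.28 ± 0.08; limma, adjusted p = 0.401). These 2 relatives thus lay on the same side by like amounts. Snrpa1, whose protein pairs with that of Snrpb2 on U2 RNA, had 129 and 136 TPM in the Stk40-/- libraries and 127 and 129 TPM in the WT libraries. Snrpc, which encodes the U1 protein that steadies pairing with the start of the intron, had 228 and 213 TPM in the Stk40-/- libraries and 206 and 240.0 TPM in the WT libraries. Its log2 fold change was -0.01 ± 0.10, and it was 0.10 without WT replicate 2.

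Transcript length moved with the fold change across the genome. Among tested protein-coding genes the median log2 fold change was -0.10 for 256 genes whose longest transcript was under 700 bases, -0.09 for 402 genes of 700 to 1000 bases, and -0.01 for 919 genes of 1000 to 1500 bases. It was 0.02 for genes of 1500 to 2500 bases, 0.06 for those of 2500 to 4000, 0.12 for those of 4000 to 6000, and 0.16 for 1820 genes of 6000 bases or more. The differences between replicates were smaller, with class medians within 0.04 of 0 for both genotypes. Replicate 2 minus replicate 1 went from 0.01 at 700 to 1000 bases to -0.04 at 6000 bases or more in the Stk40-/- pair. In the WT pair it went from 0.02 to -0.01, with a lowest median of -0.03 between 1500 and 4000 bases. The part of length in the differences between families was not tested.

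The families differ in length in the same sense. The median of the longest transcript was 1055 bases for the Sm ring genes and 3714 bases for the hnRNP genes. Of the 6 splicing genes under 1500 bases (Snrpd1, Snrpd2, Snrpe, Snrpf, Snrpg and Srsf9), 4 had negative log2 fold changes, with a median of -0.16 against -0.04 for tested protein-coding genes of that length. For protein-coding genes of at least 50 TPM the median was -0.17 under 700 bases, -0.07 at 700 to 1000 bases and -0.03 at 1000 to 1500 bases. Snrpe, at 669 bases, was at -0.16. The 13 splicing genes of 4000 bases or more had a median of 0.12, against 0.13 for their length. The 32 between had a median of 0.12, against 0.04. Snrpd1 and Snrpf, at 858 and 861 bases, were positive at 0.25 and 0.14 where their class had a median of -0.09. Sf3b6, at 1774 bases, was at -0.26 where its class had 0.02. After centring within length classes the hnRNP median was 0.07, the SR median 0.10 and the Sm median -0.06.

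**Figure D4:**
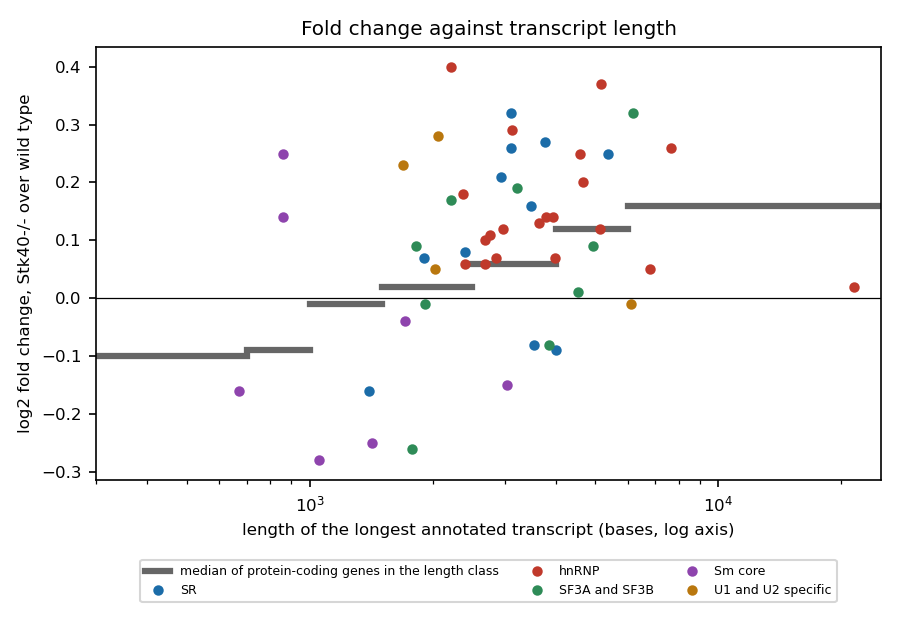
Log2 fold change, Stk40-/- over WT, of each of the 51 genes against the length of its longest annotated transcript in bases on a log axis, coloured by family, with grey bars at the median of tested protein-coding genes in each length class. The grey bars climb with length, from -0.10 to 0.16, and the Sm ring genes Snrpd1 and Snrpf stand above their class while Snrpg, Snrpd2 and Sf3b6 stand below theirs.

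The annotation holds a transcript marked for nonsense-mediated decay in 24 of the 51 genes (47.1%), against 28.1% of tested protein-coding genes and 31.6% of those of at least 50 TPM. It does so for 9 of 11 SR genes, 10 of 20 hnRNP genes and 1 of 9 SF3A and SF3B genes. Retained introns were annotated in 38 of the 51 genes (74.5%), against 57.9% and 69.1% in the same backgrounds. The genes with a transcript marked for decay had a median log2 fold change of 0.12, and those without one had 0.09, so the annotation did not separate the values. Gene-level TPM does not tell which transcript was made.

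The other genes of the splicing pathway were read from 10 lists of 123 genes, of which 119 passed the level filter. None was called by limma, the smallest adjusted p was 0.331, and 13 had an unadjusted p under 0.05 (10.9%, against 11.0% of all genes tested). In 43 genes Stk40-/- was higher without overlap and in 7 it was lower, with a median log2 fold change of 0.10. These are 36.1% higher and 5.88% lower, against 27.5% and 16.6% of all genes tested. Several of the lists hold long genes, and tested protein-coding genes of 4000 bases or more were 36.8% higher and 11.7% lower without overlap, with a median of 0.13 and 69.4% positive. The part of length in the values of the lists was not tested.

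The kinases that phosphorylate SR proteins did not separate by genotype. None of the 6 tested had groups free of overlap, against 44.0% free of overlap among all genes tested. Clk1, which shapes the phosphorylation of SR proteins in nuclear speckles, had 81.2 and 58.6 TPM in the Stk40-/- libraries and 73.4 and 46.0 TPM in the WT libraries. Its spread within each genotype was wider than the difference between them. Of the SR-related and speckle genes, 8 of 13 were higher without overlap (61.5%) and 1 was lower (7.69%), with a median of 0.27. Their median length was 4542 bases, for which 36.8% higher and a median of 0.13 are the shares given above. Srek1 had 60.2 and 56.5 TPM in the Stk40-/- libraries and 45.7 and 35.4 TPM in the WT libraries. Pnn, which encodes the desmosome and speckle protein pinin, had 99.9 and 86.9 TPM in the Stk40-/- libraries and 75.5 and 56.3 TPM in the WT libraries. Both were free of overlap, with log2 fold changes of 0.53 and 0.51, and both were lowest in WT replicate 2.

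All 10 genes of nonsense-mediated decay had positive log2 fold changes, with a median of 0.21. Positive values were held by 58.6% of all genes tested and by 69.4% of tested protein-coding genes of 4000 bases or more. In 5 genes (50%) Stk40-/- was higher without overlap and in 0 it was lower, against 27.5% and 16.6% of all genes tested. The median length was 4533 bases, and 36.8% of tested protein-coding genes of 4000 bases or more were higher without overlap. Upf3b, which links the exon junction complex to the decay factors, had 40.5 and 34.3 TPM in the Stk40-/- libraries and 24.0 and 22.9 TPM in the WT libraries, a log2 fold change of 0.65 (limma, adjusted p = 0.331). Smg1, the kinase that phosphorylates UPF1, had 31.3 and 39.6 TPM in the Stk40-/- libraries and 25.6 and 23.3 TPM in the WT libraries. For Upf3b the gap between the groups was wider than the spread within either, while for Smg1 the 2 Stk40-/- libraries differed by more than that gap.

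The tissue and developmental splicing regulators had 12 of 20 tested genes higher without overlap (60%) and 0 lower, with a median of 0.18, at a median length of 4930 bases. The shares for all genes tested were 27.5% and 16.6%, and those for long genes are given above. Tial1, of smallest unadjusted p in the list, had 128 and 135 TPM in the Stk40-/- libraries and 113 and 108 TPM in the WT libraries. Its log2 fold change was 0.25 (limma, adjusted p = 0.43). Tia1, Qk, Ptbp1 and Esrp1 were also among the 12 higher genes. Elavl2, a neuronal RNA-binding protein, had 15.6 and 8.54 TPM in the Stk40-/- libraries and 6.20 and 3.82 TPM in the WT libraries. Ptbp2, the neuronal form of the polypyrimidine tract binding protein, had 94.3 and 83.6 TPM in the Stk40-/- libraries and 74.2 and 62.1 TPM in the WT libraries. Elavl2 and Ptbp2 were higher without overlap, but for both the 2 Stk40-/- libraries differed by more than the gap between the groups. Srrm4, another neuronal regulator of the list, was below the level filter, with 0.681 and 0.357 TPM in the Stk40-/- libraries and 0.791 and 0.703 TPM in the WT libraries. The 4 neuroectoderm markers summed to 7.69 and 14.0 TPM in the Stk40-/- libraries and 4.2 and 5.5 TPM in the WT libraries. Most of that sum was Tubb3, with 4.84 and 11.5 TPM in the Stk40-/- libraries and 2.66 and 3.97 TPM in the WT libraries. Sox1 was higher without overlap, Pax6 overlapped, and Neurog2 was lower and under 0.2 TPM in all libraries. The part of such cells in the values was not tested.

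Most of the remaining lists lay closer to the background. Factors at the branch point had a median of 0.04, with 3 of 9 genes higher without overlap (33.3%) and 1 lower (11.1%). Of all genes tested, 27.5% were higher and 16.6% lower. The higher genes were Sf1, Dhx15 and Ddx46, at log2 fold changes of 0.22, 0.19 and 0.24. The lower gene was Phf5a, itself a small subunit of SF3B, with 228 and 226 TPM in the Stk40-/- libraries and 252 and 268 TPM in the WT libraries. The U1, U5 and tri-snRNP proteins had 6 of 19 genes higher (31.6%, near the 27.5% of all genes tested) and 1 lower (5.26%), with Snrnp70, the main U1 protein, at 342 and 343 TPM in the Stk40-/- libraries and 282 and 309.9 TPM in the WT libraries. The Lsm ring, which is built like the Sm ring, had 0 of 7 genes higher and 2 lower (28.6%, against 16.6% of all genes tested). Lsm5 had 139 and 143 TPM in the Stk40-/- libraries and 159 and 202 TPM in the WT libraries, and Lsm7 had 273 and 261 TPM in the Stk40-/- libraries and 291 and 301 TPM in the WT libraries. The Prp19 complex and helicases had 2 of 13 higher and 2 lower (15.4% each, against 27.5% and 16.6% of all genes tested). Prpf19, a ubiquitin ligase of the active spliceosome, had 122 and 135 TPM in the Stk40-/- libraries and 156 and 143 TPM in the WT libraries. Ctnnbl1, of smallest unadjusted p in this list, had 44.6 and 58.8 TPM in the Stk40-/- libraries and 31.2 and 34.7 TPM in the WT libraries. Its log2 fold change was 0.62 (limma, adjusted p = 0.401), and its 2 Stk40-/- libraries differed by more than the gap between the groups.

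The minor spliceosome, which removes a rare class of introns, had 4 of 8 genes higher without overlap and 0 lower, with a median of 0.15. These are 50% higher and 0% lower, against 27.5% and 16.6% of all genes tested. Zrsr2, which recognises the end of such introns, had 95.9 and 96.9 TPM in the Stk40-/- libraries and 78.1 and 64.1 TPM in the WT libraries, and its relative Zrsr1 had 14.0 and 14.1 TPM in the Stk40-/- libraries and 9.91 and 9.79 TPM in the WT libraries. Both had replicates of Stk40-/- cells within a narrow range. The 14 genes that assemble snRNPs, including those of the SMN complex and the methylosome that prepares Sm proteins, had 3 higher (21.4%, near the 27.5% of all genes tested) and 0 lower, with a median of 0.01. Prmt5, the methyltransferase of the methylosome, had 116 and 113 TPM in the Stk40-/- libraries and 104 and 105 TPM in the WT libraries. For Prmt5 the gap between the genotypes was wider than the gap within them.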

How the data were processed

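Deposited values were TPM per gene, in a table by the authors whose 4 sample columns each sum to 1000000, per the file headers and the values. There were 0 unused columns of per-sample values. Per the submitters' processing notes, the tools were CASAVA 1.7 and Salmon 0.8.2 and the build was the human hg38, although the IDs are mouse Ensembl IDs. Reads were 100 or 150 bases long on different instruments, per the labels' protocols, without naming the instrument of each library, so no batch term could be fitted. TPM keeps no depth, so the precision of a value is unknown, and Salmon divides reads among near-identical copies.

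Values were tested as log2(TPM + 1) over the 15739 genes that averaged 1 TPM or more, using limma 3.58.1 in R 4.3.3 with an intensity trend, no block and Benjamini-Hochberg adjustment over all genes. An exact permutation test of 2 against 2 libraries cannot go below p = 0.333. A group of libraries is free of overlap where both its values lie on 1 side of both values of the other. Families, paralog groups and lists were described by counts and medians, with those of all genes tested or of genes of like level or length given for comparison. The genes and lists were chosen with earlier results of these data known.

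Named genes were, per family, the 3 of highest mean level and the 4 of smallest unadjusted p, paralogs that differ in direction without overlap, and up to 3 per other list. Other members are named for completeness. Positions and lengths came from GENCODE vM21 on GRCm38, in which all 51 genes matched by Ensembl ID without version and 41 with it. Promoters came from RefSeq on GRCm38.p6, with the first window listed per gene. The alternatives were pseudocounts of 0.1 and 0.01, filters above 0 and at 5 TPM, 3 rescalings, no intensity trend, a replicate block, each library left out, and centring within length classes. The last of these and rescaling to protein-coding genes were chosen after seeing the data. The replicate numbers come from the titles, which do not say what they mark.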

Additional observations from a re-analysis of the deposited data

How the results depend on the processing

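limma called 0 of the 51 genes and 0 of all genes under all 14 alternatives. Of 714 values of the 51 genes under these, 691 kept their direction and 23, of 13 genes, reversed. With median-of-ratios factors the reversed values were -0.06 for Sf3b3, -0.05 for Hnrnpr, -0.02 for Snrpa1 and -0.01 for Hnrnpa0, Hnrnpd and Hnrnpf. With centring by length they were -0.14 for Hnrnpr, -0.10 for Hnrnpd and Sf3b3, -0.03 for Sf3a1 and -0.00036 for Hnrnpa0. After rescaling to protein-coding genes they were -0.02 for Sf3b3 and -0.01 for Hnrnpr. With median-of-ratios factors the family medians were 0.02 for SF3A and SF3B (from 0.09), -0.22 for Sm (from -0.15), 0.07 for U1 and U2 (from 0.14) and 0.06 for hnRNP (from 0.13). Centring by length gave -0.02 for SF3A and SF3B, -0.06 for Sm and 0.07 for hnRNP, and 13 lower genes without overlap in place of 8. Leaving out 1 library in turn gave medians of -0.01 to 0.09 for SF3A and SF3B (0.02 without WT replicate 1 and -0.01 without Stk40-/- replicate 2) and of -0.14 to -0.07 for Sm (-0.07 without Stk40-/- replicate 1). Leaving out 1 library also reversed 8 genes, with ranges of -0.02 to 0.06 for Hnrnpr, -0.06 to 0.40 for Sf3a2, -0.01 to 0.03 for Sf3b3, -0.10 to 0.09 for Sf3b4, -0.08 to 0.01 for Snrpb, -0.12 to 0.10 for Snrpc, -0.01 to 0.15 for Srsf2 and -0.0048 to 0.16 for Srsf7. The cause of these shifts was not tested. Of the 27 higher genes without overlap 24 kept their sign and 17 the separation under every alternative. Of the 8 lower ones 8 kept both. Pseudocounts, filters, the intensity trend, the block and left-out libraries cannot make separate groups overlap. Only the rescalings and the centring by length could undo a separation. Median-of-ratios factors were 1.04 and 1.02 for the Stk40-/- libraries and 0.993 and 0.969 for the WT libraries. Division by them moves Stk40-/- values down against WT, so it could not undo the separation of the lower genes. These shares were not taken over all genes tested.

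The count at an unadjusted p under 0.05, 16 of 51, was 0 without the intensity trend, 11 with median-of-ratios factors, 10 with centring by length, 8 without WT replicate 2, 1 without Stk40-/- replicate 2 and 2 without Stk40-/- replicate 1. With the replicate block it was 15, with 0 calls and a smallest adjusted p of 0.292 among the 51 genes. The replicate differences of the genotypes correlated at 0.25 over 10096 protein-coding genes of at least 5 TPM and at 0.40 over the 51 genes. With 2 pairs this does not show that the numbers pair the samples.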
